A study of Rattus norvegicus with 6 samples.

Results

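Endothelial and mural cells of 2 crushed rat spinal cord preparations, injected with the drug MPSS or with PBS, made up 98 of the 3500 cells kept in these libraries and of the 30699 cell barcodes deposited for the series. They were chosen per cell, by the UMIs (unique molecular identifiers, one per captured RNA molecule) of a few genes. A cell was kept with 500 or more UMIs and at most 20% mitochondrial UMIs. It counted as endothelial where Cldn5, Flt1 and Egfl7 together reached 10 UMIs per 10000 of the cell, and as mural where Rgs5, Kcnj8, Abcc9 and Myh11 together did. In either case C1qa, C1qb and Tyrobp, genes of phagocytes, and Col1a1 and Dcn, genes of fibroblasts, had to stay below 20 per 10000 each as a sum. Pecam1, an endothelial adhesion molecule that the endothelial rule also names, was not analysed here. The rule gave 65 endothelial cells, 30 mural cells and 3 cells that passed both gates, 49 of the 98 from each library.

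Endothelial cells line every vessel, and in the brain and spinal cord they form the blood-spinal cord barrier: tight junctions seal the gaps between them, and transporters carry glucose, amino acids and hormones across. Wnt signalling from the surrounding nervous tissue is known to hold this barrier programme in place. Mural cells wrap the endothelium from outside. Pericytes sit on capillaries and are known for Rgs5, Kcnj8, Abcc9 and Vtn, and smooth muscle cells ring arterioles and contract with Acta2, Tagln and Myh11.

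Both libraries came from Sprague-Dawley (SD) rats of 6 to 8 weeks whose cord was crushed at the thoracic level. On day 3 after the injury, MPSS at 10 mg/ml in PBS, or PBS alone as the control, was injected into the cord at 5 sites and 2 depths. The labels give 5 animals per condition and 1 library per condition, and collection 2 weeks after the injury, while the titles name day 3 and call the data re-analysed. A 5-mm section of cord was digested with collagenase and trypsin, strained and treated to lyse red cells, so cell shares describe what was recovered. With 1 library per condition there was no replicate and no test. Intervals are 95% and cover counting error only. A difference between the libraries cannot be told apart from one between the conditions.

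The MPSS library held 2339 barcodes, of which 2106 were kept, and the PBS library 1513, of which 1394 were kept. Kept cells had a median of 10341 UMIs in MPSS and 10151.5 in PBS. The libraries shared 5 barcodes, none of them a member. Endothelial cells summed to 307716 UMIs in MPSS and 400389 in PBS, with medians of 9120.5 and 7494 UMIs per cell. The deepest 3 cells held 26.9% and 34.3% of those sums. Mural cells were shallower, with 72477 and 84975 UMIs in all, medians of 3393 and 5015, and 20.3% and 20.8% of the sum in the deepest cell.

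Between the members and the cells past neither gate, a gap lay around most of the threshold. In MPSS the lowest endothelial member had 10.5 gate UMIs per 10000. The highest cell past neither gate, among those that met the phagocyte and fibroblast limits, had 5.84. In PBS these values were 11.3 and 3.7. The lowest mural members stood at 28.3 and 17.7 per 10000, and the highest cells past neither gate at 2.14 and 3.44. Each of these values leaves out members of the other class and the 3 cells past both gates. Those 3 had mural sums of 10.7 to 14.7 per 10000. In MPSS 2 cells passed the mural gate and were left out by the phagocyte or fibroblast limit. Endothelial members between 10 and 20 per 10000 numbered 3 in MPSS and 6 in PBS. Clustering of all kept cells, which used no gate, put 63 endothelial members and the 3 double-gated cells in 1 cluster of 69 cells, and all 30 mural members in another of 31 cells. The other 2 endothelial members lay in a cluster of 200 cells led by haemoglobin genes.

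**Figure D1:**
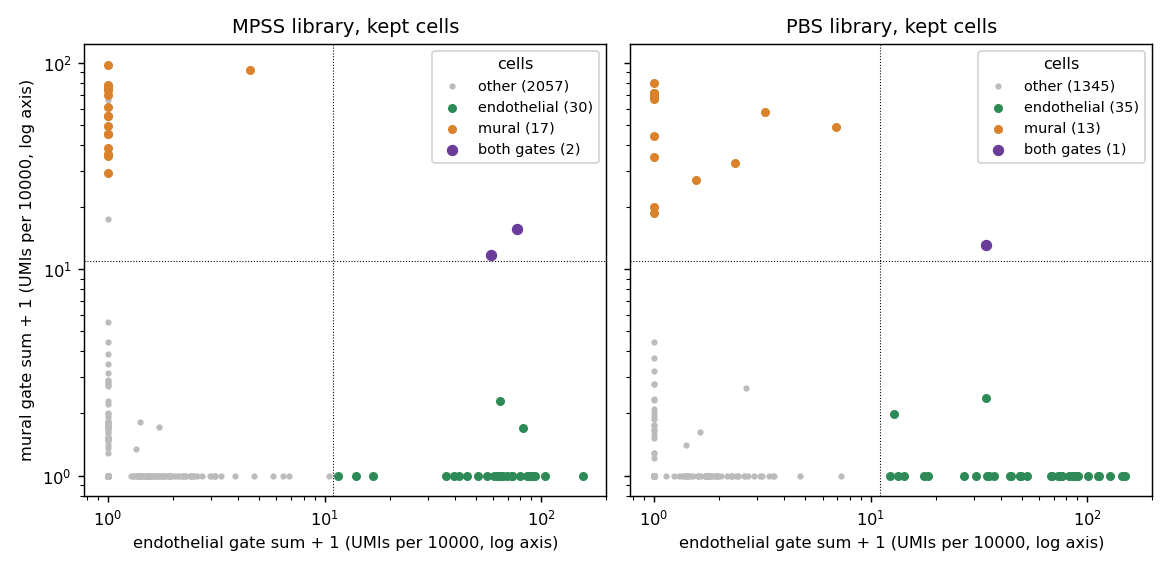
Endothelial gate sum against mural gate sum, each plus 1, in UMIs per 10000 on log axes, for every kept cell of the MPSS (left) and PBS (right) library. Dotted lines mark the gates, and the 30 and 35 endothelial cells lie along the lower right, the 17 and 13 mural cells along the upper left, and 2 and 1 cells past both. The grey points above the mural gate in MPSS are the 2 cells left out by the phagocyte or fibroblast limit.

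Levels of genes that the gates did not use went with the label on both sides. In the 65 endothelial cells of both libraries, Vwf, a clotting factor carrier stored by endothelium, was at 693 CPM (UMIs of the gene per 1000000 summed UMIs of the cells) against 0.831 CPM in the other kept cells. Esam, an endothelial junction molecule, was at 796 against 5.32 CPM, Emcn, an endothelial sialomucin, at 378 against 0.597, and Cdh5, the cadherin of endothelial junctions, at 263 against 6.23. Each had UMIs in 52 to 58 of the 65 cells. In mural cells Vwf and Cdh5 were at 0. Of 20 endothelial identity genes, Robo4 alone was at 0 in the endothelial cells. Cells chosen on endothelial genes had to differ in genes that go with them, so these levels describe the members and test nothing.

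In the 30 mural cells, Acta2, the smooth muscle actin, was at 6237 CPM against 2.08 CPM in the other kept cells, and Myl9, a myosin light chain, at 4808 against 6.49. Des, an intermediate filament of muscle and pericytes, was at 1435 against 1.9 CPM, Higd1b at 1289 against 0.467 and Vtn, the matrix protein vitronectin, at 1232 against 6.65. Pdgfrb, the receptor through which endothelium recruits mural cells, was at 362 CPM against 9.14. Higd1b had UMIs in 27 and Myl9 in 28 of the 30 cells, but Acta2 in 15 and Tagln, a partner of actin in smooth muscle, in 12. All 20 mural identity genes had UMIs, though Notch3 had 2. In the endothelial cells the 7 named here besides Notch3 stood at 2.82 to 11.3 CPM, and 4 of the 20 (Notch3, Cnn1, P2ry14 and Art3) at 0.

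**Figure D2:**
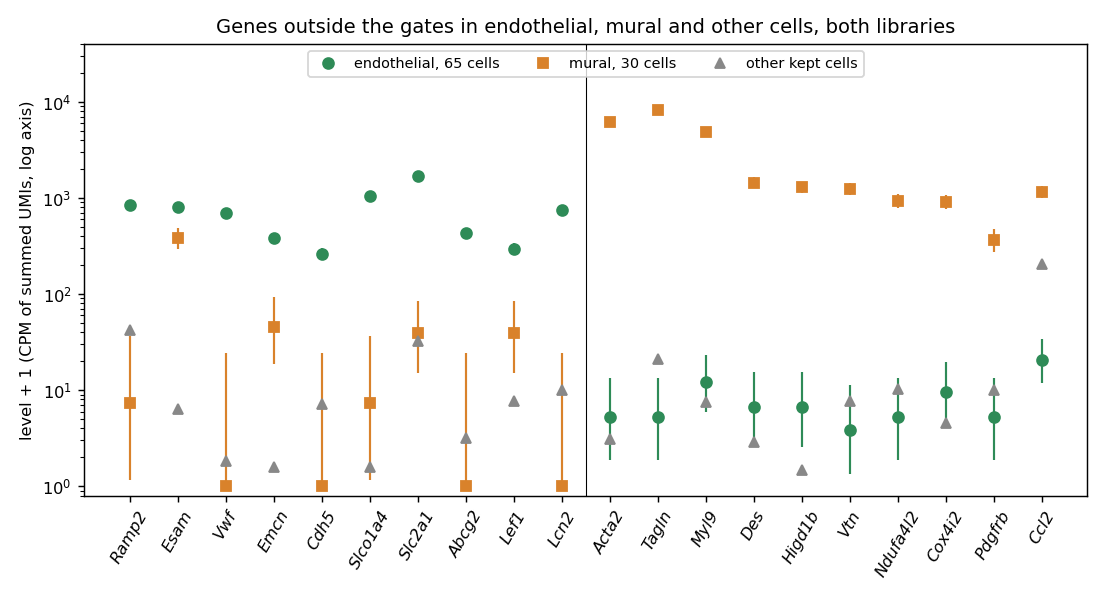
Levels of 20 genes that the gates did not use, as CPM of summed UMIs plus 1 on a log axis, in endothelial cells (circles), mural cells (squares) and all other kept cells (triangles) of both libraries. Lines are 95% counting intervals, drawn for the endothelial and mural cells. Of the left 10 genes, Esam alone has a mural level above 100 CPM (381 CPM), and all of the right 10 are highest in mural cells.

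By CPM, marker lists of other cell types were lower in the members than in the other kept cells, with 2 exceptions. These were the erythroid list in endothelial cells and the ependymal list in mural cells. The 8 neuron and 6 B-cell markers were at 0 in both classes, and the 8 neutrophil and 7 platelet markers were at 0 in mural cells. The 16 microglia and macrophage markers summed to a median of 2.46 UMIs per 10000 in MPSS and 2.35 in PBS endothelial cells, against 167 and 265 in the other kept cells, and their resting-microglia members Cx3cr1 and P2ry12 were at 0. Oligodendrocyte markers had medians of 2.49 and 1.37 in endothelial cells and 8.87 and 2.26 in mural cells, with Mog and Mag at 0 in the mural cells, and medians of 6.35 and 5.86 in the other kept cells. In mural cells the ependymal list had medians of 17.7 in MPSS and 6.07 in PBS, against 0 in the other kept cells. Its sums there were at 1711 and 706 CPM, against 359 and 356 CPM. Rarres2 held 116 of 124 and 50 of 60 of the mural UMIs, with 5 of the 7 members at 0. The erythroid markers were at 1810 CPM in MPSS and 19558.5 CPM in PBS endothelial cells, against 865 and 139 CPM in the other kept cells. Their median per endothelial cell was 0 in both libraries. Haemoglobin held 0.184% of the endothelial UMIs in MPSS and 1.98% in PBS, with UMIs in 4 of 30 and 9 of 35 cells. In 1 MPSS and 2 PBS endothelial cells it exceeded 5% of the cell's UMIs, up to 48.2%. The part of these transcripts in the differences below was not tested, apart from the fits without those 3 cells.

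Of 2106 kept cells in MPSS, 49 were members, 2.33% (1.73 to 3.06, Clopper-Pearson), and of 1394 in PBS, 49 were, 3.52% (2.61 to 4.62). Endothelial cells were 1.42% (0.963 to 2.03) in MPSS and 2.51% (1.75 to 3.47) in PBS, and mural cells 0.807% (0.471 to 1.29) and 0.933% (0.497 to 1.59). Among endothelial plus mural cells, the mural share was 36.2% (22.7 to 51.5) in MPSS and 27.1% (15.3 to 41.8) in PBS. All these intervals overlapped between the libraries, those of the endothelial share only from 1.75 to 2.03%. Such an overlap does not show that the shares were alike, and a difference was not tested. The doublet caller took the highest scores up to a share set beforehand from the number of cells, 1.68% in MPSS and 1.12% in PBS. It marked 1.52% and 0.717%, which is therefore not a measured doublet rate. Among the marked cells were 3 MPSS endothelial cells and no mural cell.

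Levels differed sharply between the endothelial and the mural cells in lists beyond identity. The barrier transporters were endothelial: Slc2a1, the glucose transporter of the barrier, stood at 1702 CPM in endothelial and 38.1 in mural cells, and the organic anion transporter Slco1a4 at 1041 and 6.35. The efflux pump Abcg2 had 302 UMIs in endothelial cells and none in mural cells. Wnt targets were higher in endothelial cells too: Lef1, a transcription factor of the pathway, was at 292 and 38.1 CPM, and Apcdd1, a Wnt inhibitor, at 366 and 44.5. The membrane protein gene Itm2a, on the same list, was less far apart. In MPSS it was at 2190 CPM in endothelial and 773 CPM in mural cells. Lcn2, an acute phase protein, had 526 UMIs in endothelial cells and none in mural cells. Mt1, a metal-binding metallothionein, was at 8720 CPM in endothelial and 1467 CPM in mural cells. Of the chemokines, Ccl2, which draws monocytes, was at 19.8 CPM in endothelial and 1162 CPM in mural cells, and Cxcl12 at 186 and 19.1 CPM. Cxcl1, a neutrophil chemokine, was at 1025 and 2496 CPM. In endothelium its UMIs were in 43.3% of MPSS and 51.4% of PBS cells, and 1 MPSS cell held 231 of 491. In mural cells the shares were 64.7% and 53.8%, and in the other kept cells 37.4% and 43.3%. Of the leukocyte selectins, Selp had UMIs in 9 and Sele in 7 of the 65 endothelial cells, and neither had any in mural cells.

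What MPSS-injected and PBS-injected cords showed in their endothelium was then compared gene by gene. A gene counted as measured with 50 or more UMIs over both sums, and as higher or lower when its CPM differed 2-fold or more. Of 1797 measured genes, 28 were higher in MPSS, 1.56% of those measured, and 39 were lower, 2.17%. The rest, all but 3.73%, was within 2-fold, and the median log2 ratio of all measured genes was 0.02. The lower genes included 4 haemoglobin genes, Hbb, Hbb-bs, Hba-a1 and Hba-a2, and Gja1, a connexin on the astrocyte list. Without the 9 PBS cells that held UMIs of Plvap, a gene described further on, 30 of 1635 measured genes were higher and 22 lower. Without the 3 deepest cells of each library fewer genes were measured, 1305, of which 27 were higher and 23 lower. Without the 3 cells rich in haemoglobin, 28 of 1768 were higher and 40 lower.

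Among the higher genes, Depp1, a target of FOXO factors whose protein is linked to autophagy, had the largest ratio among those the naming rule took. It had 230 UMIs in 23 of 30 MPSS cells and 62 UMIs in 16 of 35 PBS cells, that is 747 CPM against 155 CPM, 4.83-fold higher (3.63 to 6.5). Per cell it ran from 0 over a median of 3.52 to 34.9 UMIs per 10000 in MPSS, and from 0 over a median of 0 to 9.93 in PBS, so the libraries overlapped. The other kept cells had 0.173 and 0.261 CPM. Cells with a Depp1 UMI were 76.7% (57.7 to 90.1) in MPSS and 45.7% (28.8 to 63.4) in PBS, against 0.194% and 0.223% of the other kept cells, whose median depths were 10417 and 10311 UMIs. With every cell cut down at random to 1000 UMIs (3 PBS cells had fewer and were dropped), the shares were 36.7% (19.9 to 56.1) and 15.6% (5.28 to 32.8), and the log2 ratio of Depp1 was 1.26, against 2.27 from the sums.

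Cxcl12, the chemokine ligand of CXCR4 and a gene of capillary endothelium, was at 331 CPM in MPSS and 74.9 CPM in PBS, 4.42-fold higher (2.92 to 6.89). UMIs were found in 16 of 30 and 15 of 35 cells, and the highest cells were at 39.3 and 29.7 per 10000. As a mean over cells its log2 ratio was 1.26, against 2.15 from the sums. Hspb1, a small heat shock protein, had UMIs in 28 of 30 and 32 of 35 cells, with cell medians of 39.4 and 14.1 per 10000 and highest cells at 218 and 86.5. Its levels were 4426 and 1648 CPM, 2.69-fold higher (2.44 to 2.95), and in the other kept cells 131 and 129.7 CPM. Of the 12 genes named as higher, Hspb1 had the most UMIs and the narrowest interval.

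The further genes named as higher ran from 2.13-fold to 2.6-fold. Among transport genes, Tfrc, the transferrin receptor that takes iron across the barrier, was 2.45-fold higher (1.49 to 4.11), and Slc22a8, an organic anion transporter, 2.2-fold (1.33 to 3.73). Bcl2l1, which protects from apoptosis, was 2.38-fold higher (1.64 to 3.48) and Tinagl1, a secreted matrix protein, 2.37-fold (1.77 to 3.2). Lpar6, a receptor for lysophosphatidic acid, was 2.6-fold higher (1.56 to 4.44), and Plk2, a kinase of the stress response, 2.27-fold (1.54 to 3.38). Adtrp, an androgen-dependent regulator of tissue factor pathway inhibitor, was 2.22-fold higher (1.43 to 3.5). Akap2, which anchors protein kinase A, and Wfdc1, a secreted protein, were 2.41-fold (1.36 to 4.38) and 2.13-fold (1.67 to 2.71) higher. Rgcc, a cell cycle regulator of capillary endothelium, did not meet the naming rule, since 1 MPSS cell held 33.1% of its UMIs. It stood at 520.0 CPM in MPSS and 129.9 CPM in PBS.

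**Figure D3:**
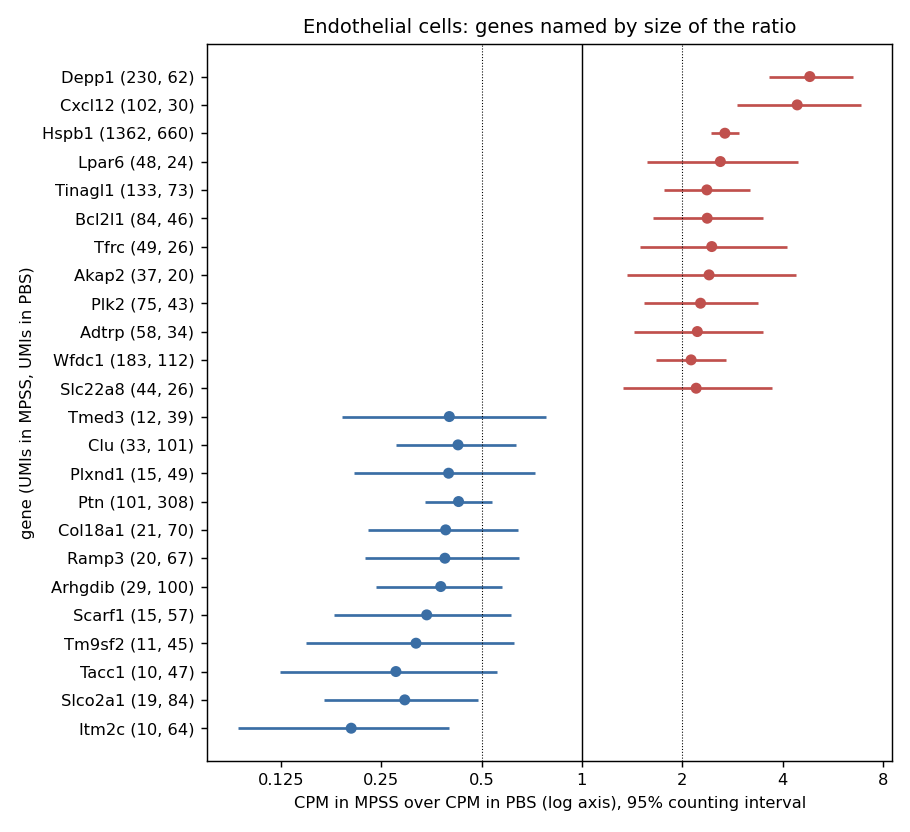
Ratio of CPM in MPSS over CPM in PBS, on a log axis, for the 12 genes named as higher and the 12 named as lower in endothelial cells, with the UMIs of each library beside the name. Points are ratios of summed UMIs and lines 95% counting intervals, and the ratios run from 0.203 for Itm2c to 4.83 for Depp1. Dotted lines mark 2-fold each way.

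Among the lower genes, Itm2c, a membrane protein of the BRI family, had 10 UMIs in 8 of 30 MPSS cells and 64 in 23 of 35 PBS cells. Its levels were 32.5 and 159.8 CPM, 4.92-fold lower in MPSS (2.51 to 10.7), and the other kept cells were at 175 and 181 CPM. Slco2a1, the prostaglandin transporter, was at 61.7 CPM in MPSS and 209.8 CPM in PBS, 3.4-fold lower (2.05 to 5.92), with UMIs in 9 of 30 and 17 of 35 cells and highest cells of 4.47 and 14.3 per 10000. Plxnd1, a semaphorin receptor that steers sprouts, was 2.51-fold lower (1.38 to 4.82), Col18a1, the basement membrane collagen that gives rise to endostatin, 2.56-fold (1.55 to 4.39), and Ramp3, a partner of the adrenomedullin receptor, 2.57-fold (1.54 to 4.48). Ptn, the growth factor pleiotrophin, was 2.34-fold lower (1.87 to 2.96), from 769 CPM in PBS to 328 CPM in MPSS.

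Scarf1, a scavenger receptor of endothelium, was 2.92-fold lower (1.63 to 5.55), Arhgdib 2.65-fold (1.74 to 4.16), and the centrosome protein gene Tacc1 3.61-fold (1.8 to 8.02). Tm9sf2 was 3.14-fold lower (1.6 to 6.74), Tmed3, a cargo receptor of the secretory pathway, 2.5-fold (1.28 to 5.24), and Clu, the secreted chaperone clusterin, 2.35-fold (1.57 to 3.6). Clu was also lower in the other kept cells, at 247 CPM in MPSS and 442 CPM in PBS. Arhgdib and Tmed3 were below the level of the other kept cells in both libraries. Arhgdib stood at 94.2 CPM in MPSS and 249.8 CPM in PBS, against 217 and 261 CPM in those cells. Tmed3 stood at 39 and 97.4 CPM, against 105 and 108 CPM. With the cells holding Plvap UMIs left out, the log2 ratio of Clu was 0.15, against -1.23 with them. The log2 ratios of Col18a1, Ptn, Akap2, Adtrp and Slc22a8 then came within 2-fold, at -0.93, -0.68, 0.99, 0.87 and 0.98. As means over cells, which weight deep and shallow cells alike, the log2 ratio of Tm9sf2 was 0.2, against -1.65 from the sums. Those of Bcl2l1, Tfrc, Wfdc1, Adtrp, Slc22a8 and Col18a1 were within 2-fold in that measure, at 0.32, 0.43, 0.37, 0.71, 0.97 and -0.74. Without the deepest cells Tfrc, Akap2, Plk2, Wfdc1, Col18a1 and Tm9sf2 were, at 0.85, 0.96, 0.93, 0.88, -0.85 and -0.9. Of the 24 named genes, 11 were past 2-fold in all 22 alternatives: Depp1, Cxcl12, Hspb1, Lpar6, Tinagl1, Slco2a1, Tacc1, Arhgdib, Ramp3, Plxnd1 and Tmed3.

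Plvap, which encodes the diaphragm protein of fenestrated and leaky endothelium and is known to be absent from mature barrier vessels, was found in the PBS library alone among endothelial cells. It had no UMI in 30 MPSS cells and 117 UMIs in 9 of 35 PBS cells. PBS was at 292 CPM, 30.0-fold above a floor of 3 counts in MPSS. The 9 cells held 49, 33, 12, 7, 6, 4, 3, 2 and 1 UMIs, so 2 of them held most. Those 2 had no Cldn5 UMI, while the other 7 had 12 to 71 Cldn5 UMIs. Since the fold counts UMIs and not cells, it does not bound the level in MPSS. With 49 of 117 UMIs in a single cell, Plvap was past the limit of the naming rule. The share of cells was 25.7% (12.5 to 43.3) in PBS and 18.8% (7.21 to 36.4) after thinning. By the floor of 3 counts, the 0 of 30 cells in MPSS allows a share of cells with a UMI of up to 10%, and the upper Clopper-Pearson bound was 11.6%. In the other kept cells it was 2.28% in MPSS and 2.9% in PBS.

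The 9 cells with Plvap UMIs, a split chosen after these values were seen, were set beside the 26 PBS cells without. They were not shallower, with a median of 7687 UMIs against 7149. In their sum, which includes the 2 cells without a Cldn5 UMI, barrier genes were lower. Slc2a1 was at 659 CPM against 1555 CPM, Slco1c1, a thyroid hormone transporter, at 244 against 671, and Slc38a5, a glutamine transporter, at 57.3 against 650.3 CPM. Slco1a4 was less far apart, at 659 against 1098 CPM. UMIs of Slco1a4 were in 6, of Slc2a1 in 4, of Slc38a5 in 3 and of Slco1c1 in 2 of the 9 cells. Lef1 was at 71.7 against 266 CPM and Apcdd1 at 100.3 against 327. Mt1 was at 1089 against 9905 CPM, and Lcn2 had 1 UMI against 282. Higher in their sum were Ccn2, a matricellular target of YAP and TGF-beta, at 1663 against 184 CPM, Mgp, the matrix Gla protein of arteries, at 2623 against 487, and Aqp1, a water channel of vessels outside the barrier, at 244 against 3.02. UMIs of Mgp were in 7, of Ccn2 in 5 and of Aqp1 in 2 of the 9 cells. Endothelial identity genes went both ways in them: Vwf was at 1075 against 693 CPM, Cdh5 at 344 against 284 and Emcn at 545 against 327, but Esam at 674 against 786 and the gate genes Flt1 and Cldn5 at 645 against 953 and 3326 against 4540. The MPSS cells, all without Plvap, were at 2096 CPM of Slc2a1, 900.2 CPM of Slco1c1 and 9177 CPM of Mt1.

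Over all endothelial cells, Ccn2 had 22 UMIs in 6 of 30 MPSS cells and 177 in 14 of 35 PBS cells, which was 71.5 against 442 CPM and 6.18-fold lower in MPSS (3.96 to 10.1). The highest cells were at 55.4 and 71.1 per 10000, and single cells held 31.8% and 29.9% of the UMIs, so the naming rule did not take it. Its log2 ratio was -2.63 from the sums, -1.02 as a mean over cells and -0.98 with cells thinned to 1000 UMIs. Outside the 9 cells with Plvap UMIs, PBS stood at 184 CPM and MPSS at 71.5 CPM. Mcam, an adhesion molecule of activated and sprouting endothelium, fell short of the minimum with 3 UMIs in 2 MPSS cells and 29 in 14 PBS cells, 9.75 against 72.4 CPM. Cells with an Mcam UMI were 6.67% (0.818 to 22.1) and 40% (23.9 to 57.9), and 3.33% and 12.5% after thinning. In the other kept cells, at medians of 10417 and 10311 UMIs, they were 18.2% and 14.6%. Those cells are of several types and were not thinned, so their share does not measure background RNA.

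**Figure D4:**
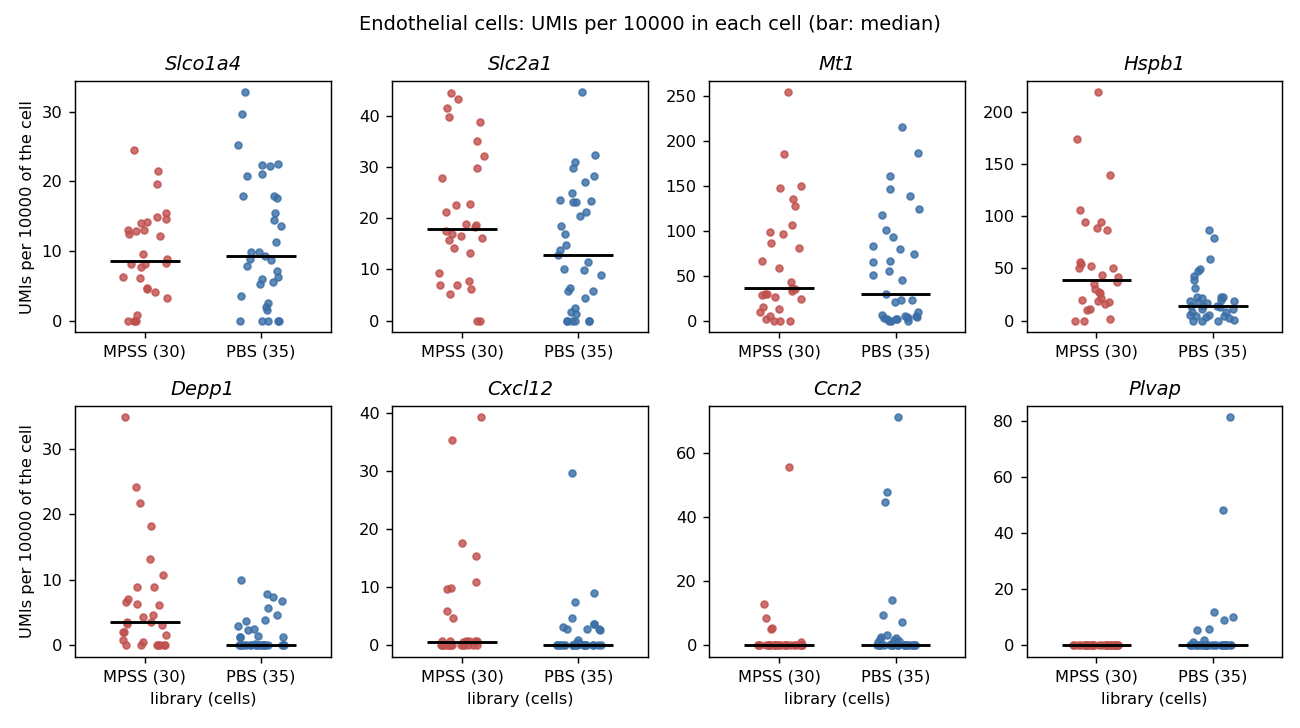
UMIs per 10000 in each endothelial cell for 8 genes, 30 cells in MPSS (red) and 35 in PBS (blue), with bars at the medians. Slco1a4, Slc2a1 and Mt1 overlap over most of their range, Hspb1 and Depp1 have higher medians in MPSS (39.4 against 14.1 and 3.52 against 0), and Plvap has UMIs in 9 PBS cells and in no MPSS cell.

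By list, all but 1 of the measured barrier transporter, junction and Wnt genes were within 2-fold. Of 14 measured barrier transporters 1, Tfrc, was higher and none lower, with a median log2 ratio of 0.18. Bsg, a chaperone of lactate transporters, was at 9116 and 5712 CPM, Slc2a1 at 2096 and 1399 CPM, and Slco1a4 at 1066 and 1022 CPM. None of 7 measured barrier junction genes was past 2-fold, with a median of 0.12: Ocln, the tight junction protein occludin, was at 146 and 135 CPM and Tjp1, its scaffold, at 224 and 207 CPM. None of 6 Wnt barrier genes was, with a median of 0.44, Lef1 at 370.5 and 232 CPM and Apcdd1 at 468 and 287 CPM. Of 7 caveola and permeability genes, Plvap alone was lower. None of 18 measured endothelial identity genes was past 2-fold, and their median was -0.3. Ecscr, an endothelial regulator of VEGF signalling, was lowest among them at 107 against 209.8 CPM.

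The capillary list had 3 of 6 measured members higher (Cxcl12, Rgcc and Tfrc), none lower and a median of 0.94, where 1.56% of all measured genes were higher. As a mean over cells that median was 0.52, and Tfrc was then within 2-fold. Of the venous list's 5, Vcam1, which holds leukocytes on the vessel wall, was lower with 16 UMIs in MPSS and 47 in PBS, and of the arterial list's 3 none was past 2-fold. The receptors of VEGF, apelin and angiopoietin had a median of -0.62 over 5 members, none past 2-fold, with Aplnr, the apelin receptor, at 87.7 and 169.8 CPM and Nrp1, a VEGF co-receptor, at 104 and 169.8 CPM. Without the cells holding Plvap UMIs that median was -0.36. Of 5 measured basement membrane genes Col18a1 was lower, and 0 of the 5 had a log2 ratio above 0. Their median was -0.31, next to 0.02 over all measured genes. Col4a1, the main collagen of vessel basement membranes, was at 370.5 and 537 CPM.

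Of 14 measured glucocorticoid receptor targets, none was past 2-fold in either direction in endothelial cells, and 8 were above 0. Their median log2 ratio was 0.18, next to 0.02 over all measured genes. Mt1 was at 9177 CPM in MPSS and 8369 CPM in PBS, and Mt2A, a second metallothionein, at 8414 and 7223 CPM. Angptl4, a lipase inhibitor, was 1.68-fold higher (1.31 to 2.15) and Klf9, a transcription factor, 1.66-fold (1.2 to 2.32). Ddit4, a brake on mTOR, was 1.85-fold lower (1.33 to 2.6) and Tsc22d3, the leucine zipper protein GILZ, 1.64-fold (1.04 to 2.65).

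Inflammatory lists held a few higher genes. Of 8 measured cytokine and NF-kB response genes, Cxcl12 and Cxcl1 were higher and none lower, with a median of 0.26, but 1 cell held 47% of the Cxcl1 UMIs in MPSS. Without the cells holding Plvap UMIs that median was 0.0038. Of 11 interferon and MHC class I genes, Ifit3 and Irf7 were higher, Isg15 came just short of 2-fold (1.4 to 2.87), and the median was 0.27. Single MPSS cells held 35.3% of Ifit3 and 60% of Irf7. Cxcl11, an interferon-induced T-cell chemokine and a leading endothelial gene here, was at 773 CPM in MPSS and 749 CPM in PBS, with UMIs in 12 of 30 and 11 of 35 cells, against 2.16 and 2.61 CPM in the other kept cells. Of 14 immediate early genes 13 were above 0, with a median of 0.5, and Jund alone was past 2-fold. Of 12 heat shock genes 10 were above 0, with a median of 0.33, and Hspb1 alone was past 2-fold. The median over all measured genes was 0.02. As means over cells these lists had medians of 0.3 and 0.2, next to 0.01 over all measured genes. Of 8 leukocyte adhesion genes Vcam1 alone was past 2-fold, and the median was 0.02. The 17 measured genes of mitochondrial respiration had a median of -0.01 and none past 2-fold.

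In mural cells 438 genes were measured, of which 16 were higher in MPSS, 3.65%, and 15 lower, 3.42%, together 7.08%. The smooth muscle gene Tagln had UMIs in few MPSS cells and in most PBS cells, while the pericyte gene Vtn had UMIs in most MPSS cells and in a smaller share of PBS cells. Gate genes chose the cells, so their values are a description. Myh11, the smooth muscle myosin and a gate gene, had UMIs in 2 of 17 MPSS cells, 11.8% (1.46 to 36.4), and in 7 of 13 PBS cells, 53.8% (25.1 to 80.8). After thinning the shares were 5.88% and 53.8%, and in the other kept cells they were 0.681% and 0.818%, at median depths of 3393 and 5015 in mural and 10417 and 10311 in the other cells. The median log2 ratio of all measured mural genes was -0.15, and scaling by the median of ratios would move it to -0.38, with 9 genes higher and 37 lower. The factors of that scaling were 1 in both libraries, so it compared sums of 72477 and 84975 UMIs without adjusting for depth. With TMM, another scaling, the median was -0.17, with 15 genes higher and 17 lower.

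Tagln had UMIs in 3 of 17 MPSS and 9 of 13 PBS cells, and ran from 0 over a median of 0 to 245 UMIs per 10000 in MPSS and from 0 over a median of 19 to 297 in PBS. A single MPSS cell held 92.3% of its UMIs there, and a single PBS cell 57.1%. Acta2 was found in 6 and 9 cells, with medians of 0 and 24.4 and highest cells at 164 and 189 per 10000. The ranges therefore overlapped, and the sums rested on few cells: Tagln was at 5395 CPM in MPSS and 10815 CPM in PBS, and Acta2 at 4181 and 7991 CPM. Mustn1, a small protein of muscle, was at 1504 and 3154 CPM and Sncg, a synuclein found in smooth muscle, at 1049 and 2518 CPM, with single MPSS cells holding 84.4% and 73.7%. Of the 10 measured genes of smooth muscle contraction, Tagln and Sncg were lower, none was higher, and the median was -0.14, next to -0.15 over all measured genes. Without the deepest mural cell of each library, that median was -1.32 over 7 measured genes, with Tagln at -3.49 and Acta2 at -2.57, and without the cells holding Myh11 UMIs it was 0.22 over 3. Tpm2, Des and Pln, the phospholamban that regulates the calcium pump, were within 2-fold.

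Of 7 measured members of the pericyte list, Vtn and Higd1b were higher, none was lower, and the median log2 ratio was 0.84. Scaled by the median of ratios it was 0.61 and Higd1b, at 0.83, was within 2-fold. Vtn had UMIs in 15 of 17 MPSS and 7 of 13 PBS cells, with medians of 19.4 and 4.52 per 10000 and highest cells at 59.9 and 29.8. It was at 1849 against 706 CPM, 2.62-fold higher (1.92 to 3.61), and at 6.13 and 7.43 CPM in the other kept cells. Higd1b was at 1794 against 859 CPM and Ifitm1, an interferon-induced membrane protein, at 1890.2 against 1059 CPM, the latter also at 2034 and 1802 CPM in the other kept cells. Pdgfrb, with 35 and 22 UMIs, was 1.87-fold higher (1.06 to 3.34), and Cox4i2, an isoform of a cytochrome oxidase subunit, 1.17-fold (0.832 to 1.65). Gja4, the connexin of arterial vessels also on this list, went the other way at 289.7 against 577 CPM. Of the gate genes, Rgs5 was found in 16 of 17 and 10 of 13 cells and Kcnj8, a potassium channel of pericytes, in 12 and 5.

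**Figure D5:**
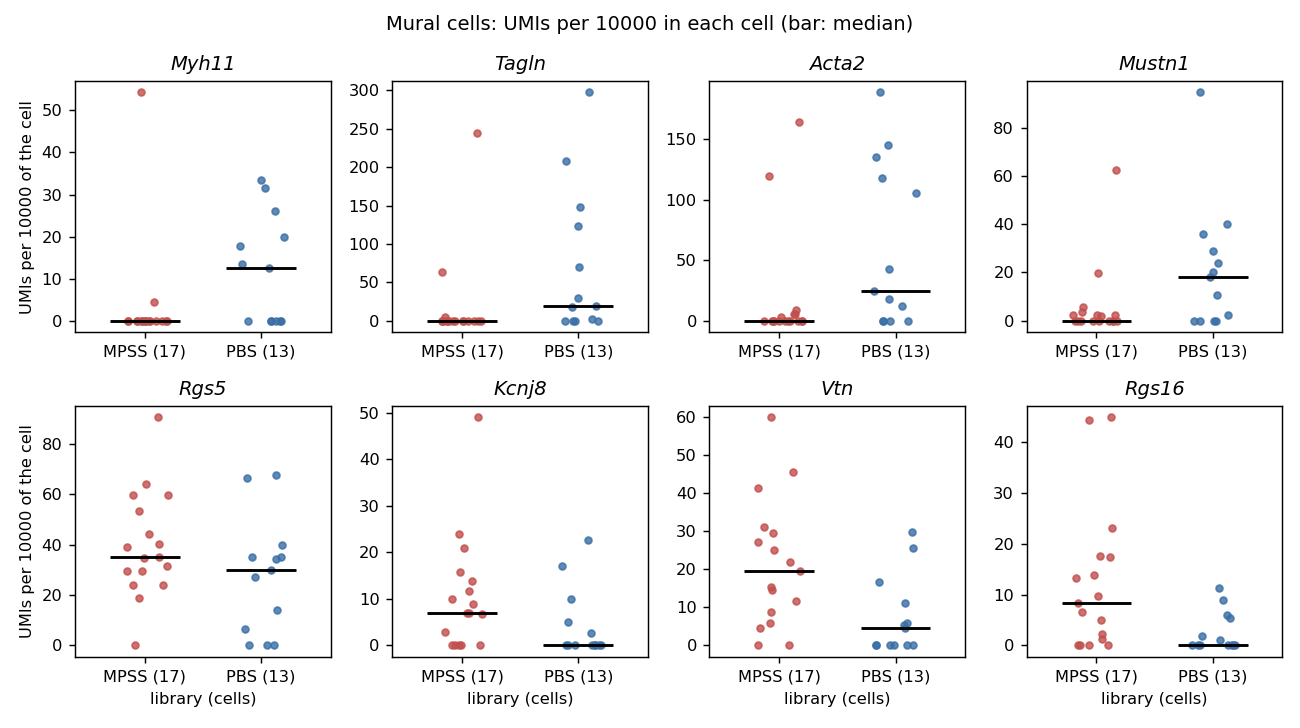
UMIs per 10000 in each mural cell for 8 genes, 17 cells in MPSS (red) and 13 in PBS (blue), with bars at the medians. Myh11 and Tagln have UMIs in 2 and 3 MPSS cells and in 7 and 9 PBS cells, and Vtn and Rgs16 have higher medians in MPSS (19.4 against 4.52 and 8.38 against 0). Myh11, Rgs5 and Kcnj8 are gate genes and describe the members only.

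The mural cells were also split at a Myh11 UMI, a choice made after these values were seen. Since Myh11 is a gate gene, a cell without it is a member only through Rgs5, Kcnj8 or Abcc9, so their levels there follow from the rule. The 2 MPSS and 7 PBS cells with Myh11 had Tagln at 20172 and 17479 CPM, Acta2 at 15362 and 12740 CPM and no UMI of Kcnj8. The 15 MPSS and 6 PBS cells without it had Tagln at 18.8 and 243 CPM, Acta2 at 113 and 457 CPM, Rgs5 at 4441 and 4170 CPM and Kcnj8 at 1374 and 1339 CPM. Cnn1, Actg2 and, in PBS, Sncg, all contractile or smooth muscle genes, had no UMI in the cells without Myh11. Within the cells without Myh11, Vtn was at 2390 CPM in MPSS and 1431 CPM in PBS, Higd1b at 2409 and 1461 CPM, and Igfbp7 at 5796 and 2161 CPM. Vtn and Higd1b were within 2-fold there, with log2 ratios of 0.74 and 0.72, and the median of 6 measured pericyte genes was 0.11, against 0.84 in all mural cells. The number of cells near this split was small, since the lower of the 2 MPSS cells with Myh11 had 2 UMIs of it.

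Among the genes the rule named as higher in MPSS mural cells, Rgs16, a brake on G-protein signalling, had 64 UMIs in 13 of 17 cells and 13 UMIs in 6 of 13, 5.77-fold higher (3.15 to 11.4). Its medians were 8.38 and 0 per 10000 and its highest cells 44.9 and 11.3. In the cells without Myh11 it was at 1185 and 213 CPM. Igfbp7, a secreted binding protein of insulin-like growth factors, was found in every mural cell, at medians of 57.5 and 20.4 per 10000, and was 2.36-fold higher (1.97 to 2.85). It was also higher in the other kept cells, at 187 CPM in MPSS and 96.8 CPM in PBS. Manf, a factor secreted under stress of the endoplasmic reticulum, was 2.41-fold higher (1.34 to 4.5), the membrane protein gene Itm2a 2.19-fold (1.38 to 3.53) and the septin gene Septin4 2.16-fold (1.32 to 3.63). Ptn, which was lower in MPSS endothelium, had 192 UMIs in 11 of 17 MPSS and 12 UMIs in 4 of 13 PBS mural cells, 2649 against 141 CPM. That was 18.8-fold higher (10.5 to 36.9), and single cells held 31.2% and 58.3% of its UMIs, past the limit of the naming rule. Its level in the other kept cells was 341 and 359 CPM.

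Of the genes named as lower, Crispld2, a secreted protein, was at 166 CPM in MPSS and 494 CPM in PBS, 2.99-fold lower (1.54 to 6.23), with UMIs in 6 of 17 and 9 of 13 cells. With the Myh11 cells left out its log2 ratio was -0.21, against -1.58 with them. Oaz1, a brake on polyamine synthesis, was 2.37-fold lower (1.36 to 4.32), and the translation factor gene Eef1a1 and the ATP synthase subunit gene Atp5me were 2.03-fold lower (1.3 to 3.25 and 1.1 to 3.89). Eef1a1 was lower in the other kept cells too, at 511 against 829 CPM. Ndufs5, a subunit of complex I, and Emp3, a membrane protein, were named by rank but were within 2-fold, both at 1.75-fold with intervals that reach 0.973 and 0.988. Without the cells holding Myh11 UMIs, Manf, Itm2a, Septin4 and Atp5me also came within 2-fold, at log2 ratios of 0.89, 0.92, 0.63 and -0.86. Of the 12 named mural genes, Rgs16 and Igfbp7 alone were past 2-fold in all 21 alternatives.

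The remaining mural lists held few measured genes. Of 5 glucocorticoid receptor targets, Mt1 was at 717 CPM in MPSS and 2106 CPM in PBS and Mt2A at 248 and 600.2 CPM, both lower, and the median was -0.12. Mt1 in the Myh11 cells was at 1138 and 2859 CPM and in the others at 564.5 and 913 CPM. None of 11 immediate early genes was past 2-fold, with a median of 0.09 (-0.14 when scaled by the median of ratios), and Fos was at 8306 and 4719 CPM. None of 8 heat shock genes, 6 glycolysis and hypoxia genes or 13 genes of mitochondrial respiration was past 2-fold, with medians of 0.35, -0.5 and -0.28. The chemokines Ccl2 and Cxcl1 were within 2-fold, at 883 and 1400.4 CPM and at 2139 and 2801 CPM. Ccn2 had 1 UMI in MPSS and 37 in PBS, of which a single cell held 97.3%. Rarres2, the chemerin gene on the ependymal list, was 2.72-fold higher (1.94 to 3.87) and Pmp22, a gene of myelin and other cells on the Schwann list, 2.34-fold (1.27 to 4.48).

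The 3 cells past both gates were deep, with 11550 and 36359 UMIs in MPSS and 36559 in PBS, and stood just past the mural gate at 14.7, 10.7 and 12 per 10000 with endothelial sums of 76.2, 57.5 and 33.1. They clustered with the endothelial cells. None was called a doublet, but the caller marked only the highest scores up to a set share, so these cells may still be doublets. They entered the class shares and neither of the gene comparisons.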

How the data were processed

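Both libraries were made with droplet capture of single cells (10x Genomics 3′ chemistry). The deposited matrices hold whole-number UMI counts per gene and cell, made with Cell Ranger 3.1.0 per the file headers and 3.0.2 per the submitters' processing notes; the genome build is not given in the sources used here. Of 25199 gene rows, 279 shared a symbol with another row, and rows of 1 symbol were summed. Members and gene lists (45 lists, 548 genes, 530 of them in the files) were chosen with earlier results of these data known.

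UMIs of a class were summed per library and scaled to CPM. Levels have exact Poisson intervals, ratios exact binomial ones and shares Clopper-Pearson ones, all at 95% and for counting error only; a fold against 0 uses a floor of 3 counts per library. A gene was called at 2-fold or more with 50 or more UMIs over both libraries. Named genes were the 12 highest and 12 lowest endothelial and the 6 highest and 6 lowest mural log2 ratios of CPM plus 10. They needed UMIs in 10% of cells, no cell with over 25% of the UMIs and at least 0.5 of the level in other cells, all in the library where the gene was higher. Mitochondrial, ribosomal, haemoglobin, gate and other-cell marker genes were left out, and up to 4 measured genes were named per list. Other genes, and the splits by Plvap and Myh11, were chosen after their values were seen. Doublets were called from simulated doublets, up to a share set from the number of cells, and kept. Alternatives covered gates, cell filters, scaling (TMM of edgeR 4.0.16, size factors of DESeq2 1.42.0, R 4.3.3), the UMI minimum, depth and single cells. Calculations used Python 3.11.15, numpy 2.4.6, scipy 1.17.1, pandas 2.3.3, scikit-learn 1.9.0 and leidenalg 0.10.2, and were tested on simulated data.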

Additional observations from a re-analysis of the deposited data

Results flagged for a closer look

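Ptn, the growth factor pleiotrophin, was the 1 gene of 384 measured in both classes that was past 2-fold in opposite directions in them. Its log2 ratio of MPSS over PBS was -1.23 in endothelial cells and 4.23 in mural cells. In endothelium UMIs were in 14 of 30 MPSS and 25 of 35 PBS cells, and in mural cells in 11 of 17 and 4 of 13. The difference between the classes was not tested, since each condition has 1 library. With the cells holding Plvap UMIs left out the endothelial value was -0.68, and with those holding Myh11 UMIs left out the mural value was 3.43.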

How the results depend on the processing

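Class shares moved by less than their intervals in 22 of 22 values, at 2.15 to 2.42% in MPSS and 2.94 to 3.59% in PBS. Counts of endothelial genes past 2-fold (28 higher, 39 lower) were 110 and 208 with a minimum of 20 UMIs, 1487 and 2512 with none, 59 and 81 as means over cells, and 3 and 6 with cells thinned to 1000 UMIs, where 180 genes were measured. Lower genes numbered 22 of 1635 measured without the cells holding Plvap UMIs and 23 of 1305 without the deepest cells, against 39 of 1797. For mural genes (16 higher, 15 lower) they were 76 and 58 with a minimum of 20 UMIs, 2211 and 2241 with none, and 7 and 5 thinned, where 98 genes were measured. By the median of ratios, whose mural factors were 1 in both libraries, they were 9 and 37, and by TMM 15 and 17. Higher mural genes numbered 10 of 330 measured with at least 2 gate genes and 29 of 484 with classes by cluster. Lower ones numbered 25 of 438 as means over cells. Among named genes past 2-fold, log2 ratios changed sign for Clu (0.15 without the cells holding Plvap UMIs), for Tm9sf2 (0.20 as a mean over cells, 0.093 thinned), and thinned for Akap2 (-0.32), Adtrp (-1.49) and mural Manf (-0.065). Of genes within 2-fold, Mt1, Mt2A, Vwf and mural Myl9 (0.22 without the cells holding Myh11 UMIs) changed sign too. Thinning, the UMI minimum and the settings that leave out or regroup cells all change how many genes are measured. The cause of the changes in counts and signs was not tested. Depp1, Cxcl12 and Hspb1 stayed past 2-fold in 22 of 22 alternatives (lowest log2 ratios 1.26, 1.26 and 1.33) and mural Rgs16 and Ptn in 21 of 21. Leaving out cells and the haemoglobin filter were chosen after seeing the data. No paired analysis was possible because each condition has 1 library, so the groups share 1 replicate number. The number and depth of the mural cells, the scaling and single cells all limit that class.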
